A study of Mus musculus with 2 samples.

Results

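Synaptic vesicle and fusion genes were examined in a map of accessible chromatin of Hb9::GFP mouse embryos (strain C57/Bl6, embryonic day 10.5). The cells were GFP-positive, purified by FACS and labelled as spinal motor neurons. Accessibility was measured by ATAC-seq, in which the Tn5 transposase cuts and tags open DNA. GFP is driven by control sequences of Hb9, the homeobox gene now called Mnx1, and so marks cells that use them. The 2 replicates form 1 group with no comparison tissue, and they were deposited as 1 pooled, filtered peak list, so replicate error cannot be given and no conditions can be compared.

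The genes were taken by a rule on names: every protein-coding gene called Syt, Stx, Vamp or Cplx with a number, and Syn1 to Syn3, Sv2a to Sv2c, Rab3a to Rab3d, Snap25, Snap91 and Syp. This gave 57 genes, of which 56 are placed on an mm10 chromosome, among 21774 placed protein-coding genes. Vamp7 was not analysed here, because its listed coordinates are those of a scaffold that the gene table does not name. A peak entry is 1 summit of the deposited list. It was assigned to a gene when it lay inside the gene's span, or within 100 kb outside it with an end of that gene the nearest end of any protein-coding gene. Of 138387 entries, 541 were assigned to these genes, and no entry belonged to more than 1 of them. Assignment by distance does not show which gene a site acts on.

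Neurons release transmitter when a synaptic vesicle fuses with the plasma membrane. Vesicle SNAREs (the Vamp proteins, or synaptobrevins) zip up with the plasma membrane SNAREs (syntaxins and Snap25), complexins hold the partly zipped complex ready, and synaptotagmins sense the calcium that triggers fusion. Synapsins tether vesicles in the terminal, Sv2 proteins and synaptophysin sit in the vesicle membrane, Rab3 GTPases act in docking, and Snap91 helps clathrin to retrieve the membrane. Other syntaxins and Vamps run fusion between endosomes, Golgi and endoplasmic reticulum in every cell type. Spinal motor neurons use this machinery at the neuromuscular junction, which forms later than the stage sampled here.

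Values below are the authors' fold of the summit over the local background and the number of reads at the summit, which was recovered from the deposited fold and p-value and is a whole number of overlapping reads or fragments. Over the whole list the median entry had 24 reads, the middle 90% lay between 12 and 129, and the smallest had 11. Where no entry is listed, the signal may have been under what the caller could detect, or the filter may have removed the entry. Such a site is not shown to be closed. Intervals for reads are 95% exact Poisson intervals and cover counting error only. Over all protein-coding genes, 63.7% carried an entry at an end (within 1 kb), and the marker lists set beside this share hold only 3 to 8 genes each. Marker genes of motor neurons carried such an entry in 7 of 8 cases, with Isl2 as the exception, and those of neural progenitors in 5 of 5. Of blood genes 1 of 6 did (Spi1), of liver genes 1 of 3 (Apoa1), of endothelial genes 2 of 4, of astrocyte and oligodendrocyte genes 2 of 4 and of muscle genes 2 of 3. What these other cell types contribute to the entries below was not tested.

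All 56 genes had at least 1 entry, against 83.4% of all protein-coding genes. An entry within 1 kb of an end of the gene was present at 51 of the 56 (91.1%), against 63.7% of all genes. Where the strand was known, 38 of the strongest of these lay on the start side and 2, at Sv2c and Syt8, on the far side. Entries over 1 kb from both ends were assigned to 47 genes (83.9%), against 67.7% of all genes. The presence of entries thus stood above the background, but their strength did not. Taking the strongest such entry for each gene, the medians were 7.78-fold and 87 reads in the vesicle and fusion genes, against 7.99-fold and 93 reads over all 13872 genes with such an entry. In fold, 23 of the 51 genes exceeded the median of all genes. The genes are also longer than most, with a median span of 31.4 kb against 17.2 kb, and the part of length in these counts was not tested.

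**Figure D1:**
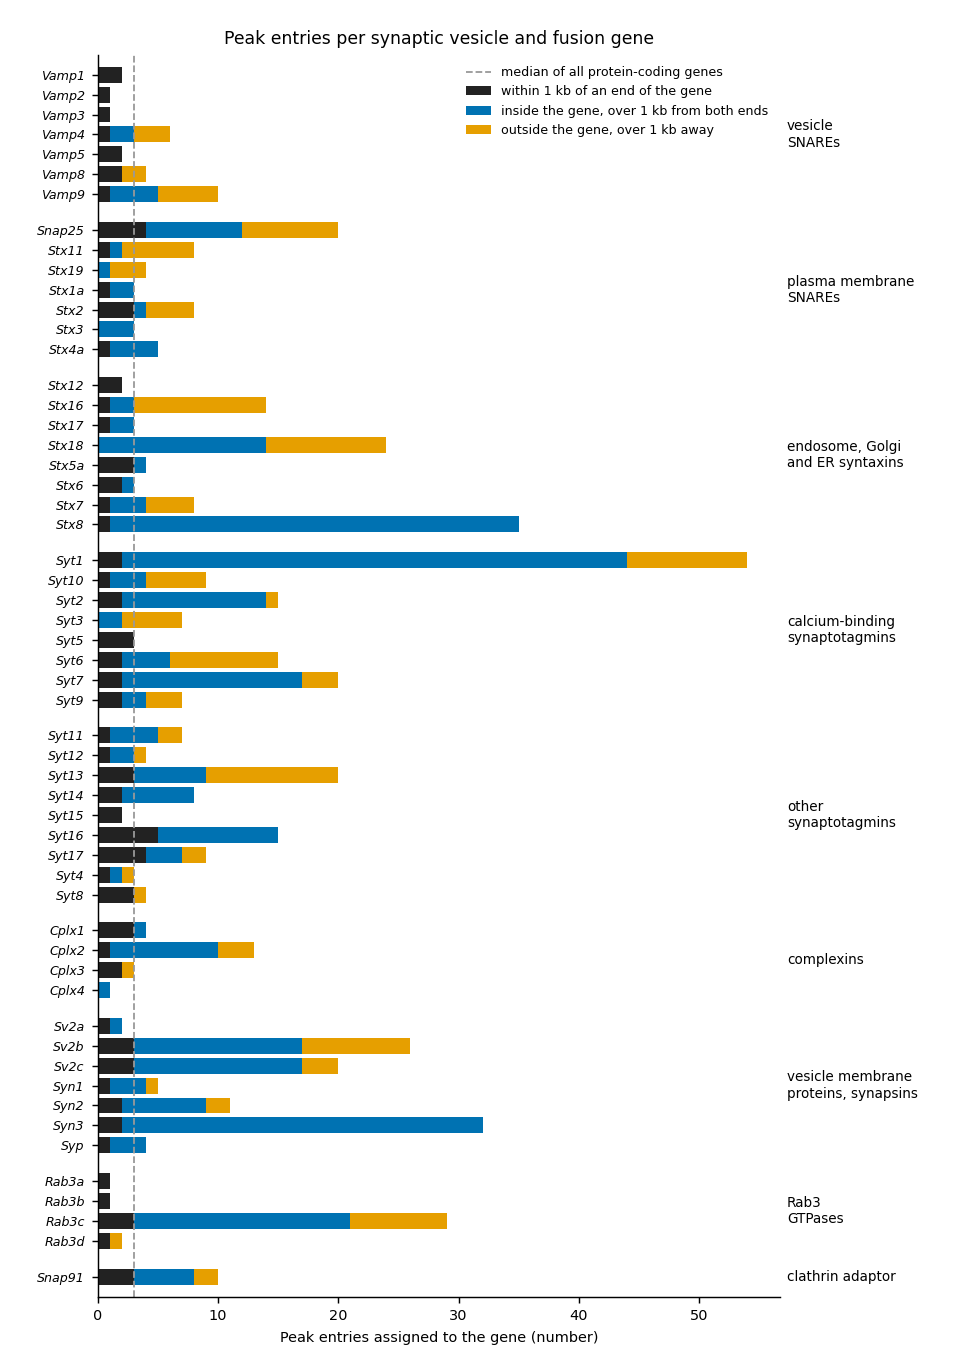
Number of peak entries assigned to 55 of the 56 genes, grouped by role. Black bars count entries within 1 kb of an end of the gene, blue bars entries inside the gene and orange bars entries outside it; the dashed line is the median of 3 over all protein-coding genes. Syt1 had the most with 54, Stx8 had 35 and Syn3 32, while Vamp2, Vamp3, Rab3a, Rab3b and Cplx4 had 1 each.

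Transcription starts and promoter sequences were taken from RefSeq (GRCm38.p6, the assembly behind mm10), in which 44 of the 56 genes matched, with 60 starts. The genes without a listed promoter include Cplx4, Snap25, Syn3, Syt4, Syt5, Syt7, Syt12, Syt13, Syt17, Vamp2 and Vamp3. Of the 44 genes, 43 had an entry within 1 kb of a start, against 66.5% of the 17492 protein-coding genes in the promoter table. Stx19, whose span lies within Arl13b, was the exception. The summit lay within 250 bp of the start at 38 of the 43 genes, and the interval of the entry held the start at 41. Over all 11640 genes with a start entry, these counts were 9212 and 10713. At the strongest start the median was 7.86-fold and 86 reads, against 8.47-fold and 102 reads over all 11640 genes with a start entry.

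The 7 starts without an entry shared a promoter poor in CpG, the dinucleotide that is dense in the promoters of broadly active genes. In the 300 bases around the start they held 0 to 6 CpG. The 53 starts with an entry held 3 to 49, with a median of 19. All 50 member promoters with 8 CpG or more had an entry, and 3 of the 10 with fewer did. Starts of 1 gene can share an entry and are counted singly here. Of those 3, 2 are starts of Syt8 that share an entry of 18 reads, its summit 899 and 772 bp past them. The other is the start of Vamp8, with the summit 472 bp past it. Promoters with under 8 CpG were 10 of the 60 in these genes, against 8184 of 21263 over all protein-coding genes. The part of this difference in the presence of entries was not tested. Over all protein-coding genes an entry was present at 98.8% of promoters with 16 or more CpG, at 81.8% with 8 to 15 and at 20.1% with fewer. As a check over the whole set of genes this is void, because only 44 of the 56 (78.6%) have a listed promoter, and it describes those 44.

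**Figure D2:**
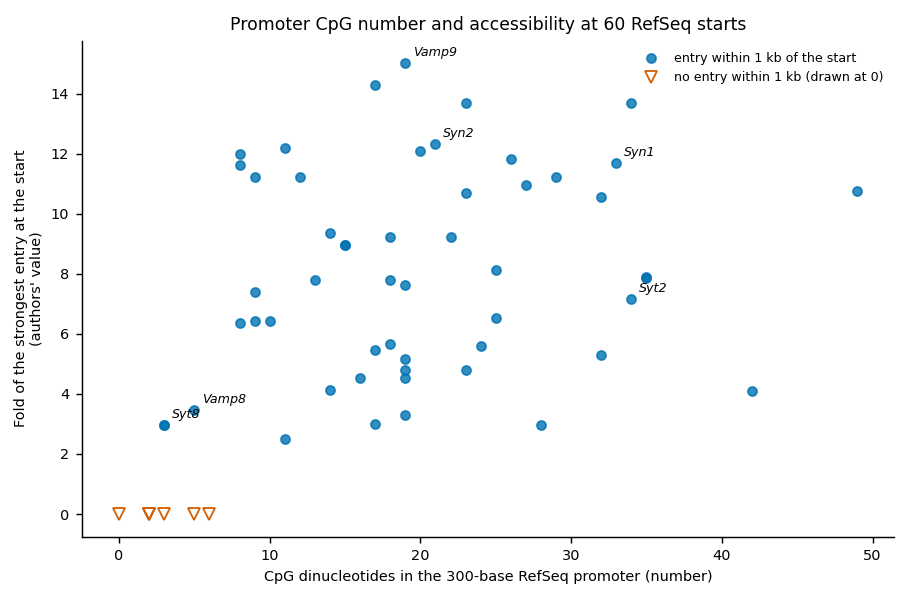
Number of CpG dinucleotides in the 300-base promoter (horizontal axis) and the authors' fold of the strongest entry within 1 kb of the start (vertical axis) for 60 RefSeq starts of 44 genes. Open triangles at 0 mark the 7 starts without an entry, all with 6 CpG or fewer; above that number every start had an entry, between 2.51-fold and 15.01-fold.

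Of the 44 genes 12 have several starts, and at Syn2, Syt1, Sv2b, Stx2 and Syt8 some start had an entry within 1 kb and another had none. How often this occurs over all genes with several starts was not counted. The 100 bases upstream are shown for Syn2 and Syt1, and for the starts of Vamp9 and Stx19, with CpG in capitals. Syn2, which encodes a synapsin, had a 12.3-fold entry with 116 reads at its first start and none within 1 kb of a start inside the gene. Syt1, which encodes the main calcium sensor of fast release, had an 11.98-fold entry at its first start and none at the start that follows. Vamp9 had the highest fold among the starts of these 44 genes, and Stx19 had no entry at its start.
Syn2 first start, chr6:115134802-115134901, plus strand: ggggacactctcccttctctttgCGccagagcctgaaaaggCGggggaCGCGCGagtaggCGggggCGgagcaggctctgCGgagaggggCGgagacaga
Syn2 inner start, chr6:115238894-115238993, plus strand: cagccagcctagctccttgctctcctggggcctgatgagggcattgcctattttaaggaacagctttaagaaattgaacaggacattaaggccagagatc
Syt1 first start, chr10:109010976-109011075, minus strand: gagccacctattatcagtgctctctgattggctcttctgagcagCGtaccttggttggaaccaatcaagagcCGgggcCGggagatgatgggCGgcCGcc
Syt1 following start, chr10:109009112-109009211, minus strand: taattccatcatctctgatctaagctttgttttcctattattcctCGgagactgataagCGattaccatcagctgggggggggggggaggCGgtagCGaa
Vamp9 start, chr5:99906165-99906264, plus strand: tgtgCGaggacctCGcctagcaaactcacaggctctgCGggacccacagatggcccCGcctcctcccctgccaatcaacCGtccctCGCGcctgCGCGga
Stx19 start, chr16:62814576-62814675, plus strand: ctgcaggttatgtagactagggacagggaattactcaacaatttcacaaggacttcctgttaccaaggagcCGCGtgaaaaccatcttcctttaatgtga
The Syn2 stretches hold 9 CpG at the accessible start and 0 at the inner one. Those of Syt1 hold 5 and 4, so this pair differs little in CpG over these 100 bases. Vamp9 has 9 and Stx19 has 2.

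Other genes with several starts behaved in different ways. At Sv2b the entry of 6.44-fold and 40 reads lay within 1 kb of the first pair of starts, with 10 and 9 CpG, while the inner starts, with 2 and 0 CpG, had none. Stx2 had 8.11-fold and 87 reads at its outer start and none at its inner start. Syt2, a calcium sensor closely related to Syt1 and used at the neuromuscular junction, was accessible at both starts, with 7.14-fold and 77 reads at the first (60.8 to 96.2 reads) and 2.98-fold at the second. At Rab3a, Stx5a, Stx7 and Vamp4 the starts lie so close together that 1 interval held both.

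Promoters of neuronal genes can carry an RE1 element, the binding site of REST, a repressor that keeps such genes silent in other cells and in progenitors. The 300-base promoters were searched on both strands for the hexamers AGCACC and GGACAG, separated by 2 bases. With at most 1 mismatch in the 12 named bases, a match was found at 2 of 60 member promoters, those of Syn1 and Syt2, against 0.376% of 21263 promoters of protein-coding genes. With at most 2 mismatches there were 3 (5% of the 60), against 4.595% of all promoters, so the looser search did not set these genes apart. The 250 bases upstream of both starts are shown because each match lies beside an accessible start, with the 14 bases of the match in capitals.
Syn1, chrX:20920919-20921168, minus strand: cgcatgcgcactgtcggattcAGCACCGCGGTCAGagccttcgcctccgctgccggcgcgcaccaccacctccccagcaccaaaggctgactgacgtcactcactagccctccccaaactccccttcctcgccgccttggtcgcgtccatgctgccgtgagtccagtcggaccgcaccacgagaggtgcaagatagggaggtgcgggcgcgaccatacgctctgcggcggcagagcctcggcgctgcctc
Syt2 first start, chr1:134646362-134646611, plus strand: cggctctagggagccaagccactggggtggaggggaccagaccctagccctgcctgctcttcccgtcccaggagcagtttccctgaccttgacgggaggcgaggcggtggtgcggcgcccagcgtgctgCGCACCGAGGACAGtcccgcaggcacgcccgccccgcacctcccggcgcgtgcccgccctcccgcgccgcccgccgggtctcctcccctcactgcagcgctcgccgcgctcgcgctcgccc
At Syn1 the match begins at −229 from the start, and the promoter also holds the cyclic AMP response element TGACGTCA at −159, the 1 promoter of these 60 to do so, against 2.23% of all promoters. The entry at Syn1 had 11.7-fold and 100 reads (81.4 to 122) with its summit at −94. At Syt2 the match begins at −121 and the summit lay at 16 bases past the start. A match in letters is not evidence that a factor was bound.

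Among the 53 member promoters with an entry, the E-box CAGCTG was present in 18 (34.0%), from 15 genes, against 14.9% of 13963 promoters of all genes with an entry. These were the complexins Cplx1, Cplx2 and Cplx3, the syntaxins Stx1a, Stx4a, Stx7, Stx8, Stx11 and Stx12, the synaptotagmins Syt6, Syt14 and Syt16, and Rab3a, Rab3c and Sv2a. The Sp and KLF box GGGCGG was in 75.5%, against 65.3%. The homeobox core TAATTA was in 1 (Syt6), against 2.54%, and the Onecut core ATTGAT in 0, against 3.77%. The EBF pattern, TCCC and GGGA 2 bases apart, was found in 1 of all 60 promoters, at a start of Stx2, against 0.959%. The neuronal E-box CAGATG was in 5.66%, against 11.2%, and the TATA box TATAAA in 7.55%, against 6.65%. The NRF1 core GCATGCGC was in 9.43% (Stx4a, Stx7, Stx12 and Syn1), against 4.98%. TGACG, which TGACGTCA contains, was in 26.4%, against 30.4%. Starts of 1 gene can share bases, and these shares are descriptions.

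All 7 placed vesicle SNARE genes had an entry at an end, with a median of 9.36-fold and 134 reads, and a median of only 2 entries per gene. Vamp2, the vesicle SNARE of most central synapses, had 1 entry in all, at 7.46-fold and 89 reads (71.5 to 110), lying 38 bp inside the gene on chromosome 11. Vamp1, its relative in spinal cord and at the neuromuscular junction, had 9.36-fold and 134 reads (112 to 159). The intervals of Vamp1 and Vamp2 do not overlap. Vamp3 (cellubrevin), which serves recycling endosomes, had 11.5-fold and 173 reads at its only entry, which also lies inside another protein-coding gene, Gm38529. Without entries inside other protein-coding genes, 54 of the 56 genes had any entry, since Vamp3 and Stx19 had none outside them. Vamp4, a SNARE of the trans-Golgi network, had the most reads of any entry of these genes, 266 (235 to 300) at 13.7-fold (chr1:162570139-162571315). Among the vesicle SNAREs Vamp9 came next, with 192 reads at 15.01-fold (chr5:99906021-99906773). The 2 neighbours Vamp5 and Vamp8 were the weakest, with 48 and 21 reads. Vamp8, which works in endosomes and in secretory granules of non-neuronal cells, had 3.46-fold at its gene end and a stronger entry, 4.56-fold and 28 reads, outside the gene.

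The plasma membrane SNAREs were less marked, with a median of 6.99-fold and 79.5 reads at the 6 of 8 genes with a gene-end entry. Snap25 had a broad interval with 4 summits at 1 end (chr2:136713102-136714581), the strongest of 6.35-fold and 98 reads (79.6 to 119) and the others of 37, 67 and 30 reads. Its local background there was 14.6 reads. A stronger fold was found deep inside Snap25, 8.15 with 98 reads, 33.8 kb from the nearer end (chr2:136746826-136747523), and 7.53-fold with 111 reads lay outside the gene, 33.4 kb away. Stx1a, a syntaxin of the neuronal plasma membrane, had 7.64-fold and 72 reads (56.3 to 90.7; chr5:135023226-135023915) at its start. Stx2 and Stx11, syntaxins known mostly from other cell types, had 87 and 92 reads. Stx4a, which acts in insulin-stimulated glucose transport, had 45 reads at its start. Stx3, which serves apical membranes and the ribbon synapses of the retina, had no entry within 1 kb of its span ends but 6.35-fold and 51 reads 654 bp past its RefSeq start. Stx19 had 39 reads at most, at a site 9.95 kb outside the gene and inside Arl13b.

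The syntaxins of endosomes, Golgi and endoplasmic reticulum, which all cells use, had an entry at an end in 7 of 8 genes, with medians of 10.6-fold and 107 reads that lay above those of the plasma membrane SNAREs. Stx17, the SNARE of autophagosomes, reached 14.3-fold and 134 reads. Stx6, of the trans-Golgi network, had 12.1-fold and 170 reads. Stx7, of late endosomes, had 11.2-fold and Stx12, of recycling endosomes, 10.6-fold. Stx16 had 7.78-fold with 138 reads and Stx5a, of the Golgi, 8.94-fold with 107. Stx18, of the endoplasmic reticulum, had no entry within 1 kb of its span ends, but its RefSeq start lies inside the span and carried 10.7-fold and 86 reads. Stx8 was the exception in the other direction, with 4.79-fold and 33 reads at its start and 35 entries in all, each of them inside its span of 241 kb or within 1 kb of it. The strongest of these was 9.98-fold with 131 reads (chr11:68150923-68151587), 56.02 kb from the nearer end. Ntn1, which encodes the guidance factor netrin, lies 2.22 kb beyond Stx8. Stx18 overlaps Nsg1 and has Msx1 as its neighbour at 212 kb.

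**Figure D3:**
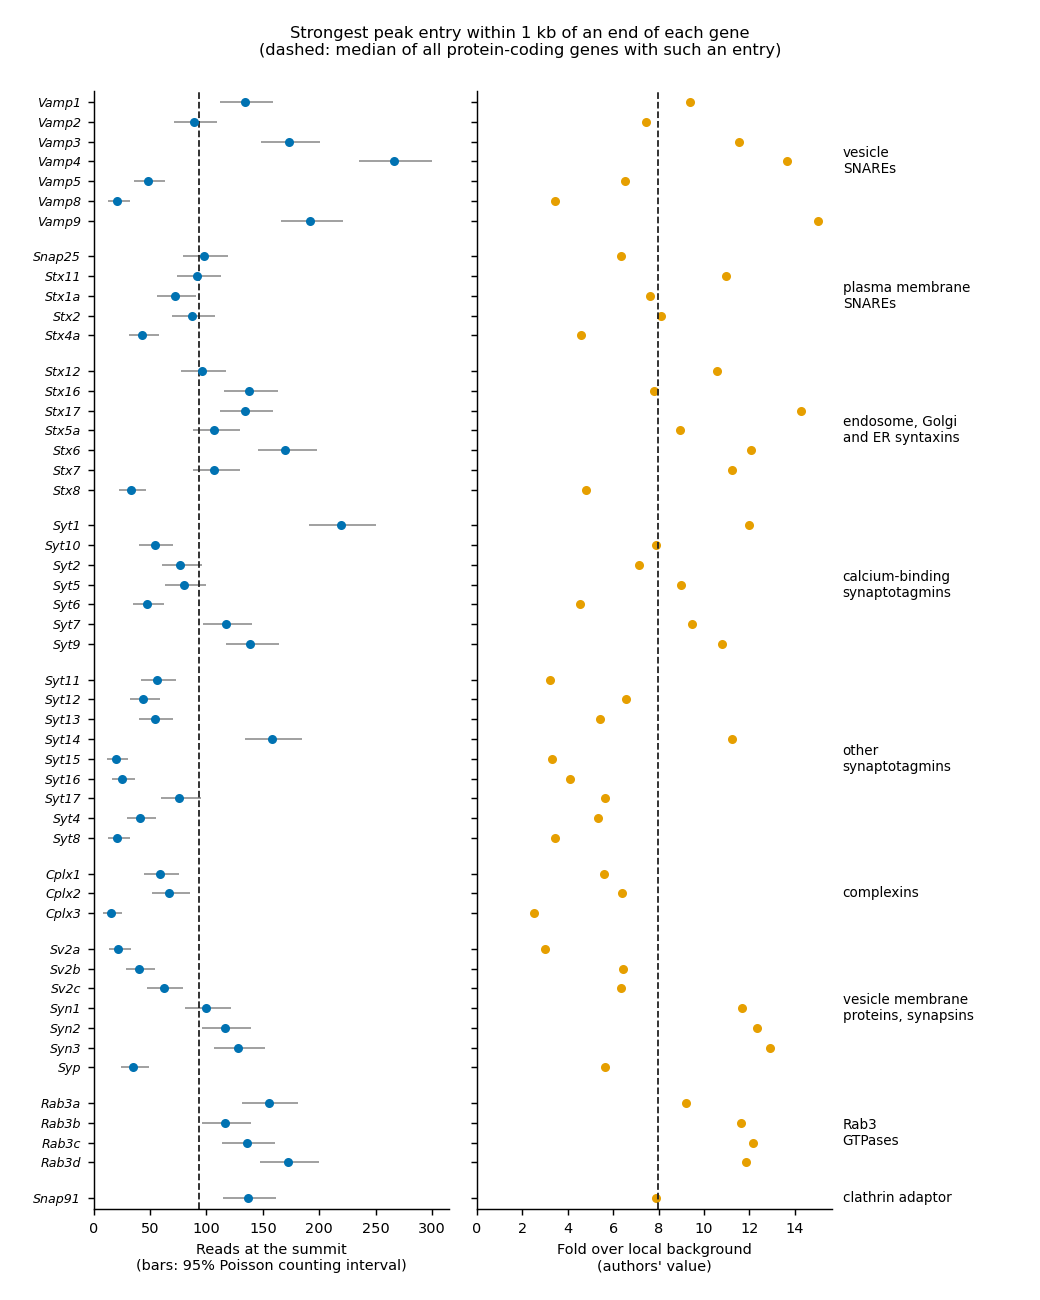
Reads at the summit (left, bars are 95% Poisson counting intervals) and the authors' fold over local background (right) of the strongest entry within 1 kb of an end, for 50 of the 51 genes with such an entry, grouped by role. Dashed lines mark the medians of all genes with one, 93 reads and 7.99-fold. Vamp4 and Syt1 had the most reads, and the other synaptotagmins and the complexins lie mostly left of both lines.

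Of the 8 calcium-binding synaptotagmins 7 had an entry at an end, with a median of 8.99-fold and 80 reads, and the largest number of entries of any role, 130. Of these 130, Syt1 held 54. Per 100 kb of span and nearest flanks the role had 7.79 entries, against 8.02 for all 56 genes together. Syt1 led at its start with 11.98-fold and 219 reads (191 to 250; chr10:109010409-109011161). Syt9, another fast sensor, had 10.8-fold and 139 reads (117 to 164), and Syt7, which supports slow and asynchronous release, 9.46-fold and 117 reads (96.8 to 140). Syt2 had 77 reads (60.8 to 96.2), below the interval of Syt1. Syt5 had 80 reads, Syt10 54 and Syt6 47. Syt3 had no entry within 1 kb of its span ends, 5.47-fold and 41 reads at its RefSeq start, and an entry outside the gene with the highest fold of all 541, 15.6 with 185 reads, 5.82 kb from its end (chr7:44405495-44406251). That site lay in no other protein-coding gene and not within 1 kb of any other start in the promoter table.

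The other synaptotagmins, several of which lack calcium binding, were all 9 accessible at an end, but with a median of only 5.35-fold and 44 reads. Syt14 stood out with 11.2-fold and 158 reads. The remaining 8 had between 20 and 76 reads. Syt4, a synaptotagmin of dense core vesicles, had 41 reads at its gene end, 34 inside and 51 outside the gene. Syt11 had 3.23-fold at the end of its span, but 4.12-fold and 73 reads at its RefSeq start and 8.15-fold and 141 reads 1076 bp past it. Syt15, Syt8 and Syt16 had 20, 21 and 25 reads, with a background at the genome-wide level of 5.37 reads. Syt13 had 20 entries, 11 of them outside the gene, and no single one above 6.02-fold.

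Complexins were weak at their ends. Cplx1 had 5.61-fold and 59 reads (44.9 to 76.1) and Cplx2, the other complexin of central synapses, 6.39-fold and 67 reads (51.9 to 85.1), intervals that overlap. Beside its start, Cplx2 had a summit of 7.38-fold and 78 reads 679 bp past the start, and 8.12-fold and 62 reads deep inside the gene, 12.3 kb from its far end (chr13:54371395-54372135). Cplx3 and Cplx4 are complexins of retinal ribbon synapses. Cplx3 had the weakest strongest gene-end entry of all 51 genes, 2.51-fold and 15 reads (8.40 to 24.7). Cplx4 had 1 entry, of 6.60-fold and 41 reads inside the gene on chromosome 18.

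The vesicle membrane proteins split into strong and weak. The synapsins had 11.7-fold (Syn1), 12.3-fold (Syn2) and 12.9-fold (Syn3) at a gene end, with 100, 116 and 128 reads and overlapping intervals. Sv2a, the Sv2 protein found in nearly all synapses, had 3.004-fold and 22 reads (13.8 to 33.3) at its start and 16 reads at its only other entry. Sv2b had 6.44-fold and 40 reads at its starts and 7.87-fold and 69 reads inside the gene, 12.4 kb from the nearer end. Sv2c had 5.29-fold at its start and 13.4-fold with 143 reads deep inside the gene, 51.7 kb from its far end (chr13:96010796-96011565). Syp, which encodes synaptophysin, had 5.66-fold and 35 reads (24.4 to 48.7) at its start, and a stronger entry of 11.8-fold and 109 reads 10.4 kb into the gene (chrX:7648549-7649384), where the intervals do not overlap. The remaining 2 entries of Syp, of 12 and 13 reads, did not pass a q-value of 0.05.

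Each synapsin gene holds a gene of the Timp family of metalloproteinase inhibitors within its span, and part of its entries lies there. Timp3 lies inside Syn3 and held 7 of its 32 entries. Of these, 2 summits of 116 and 125 reads were within 1 kb of the Timp3 start. Timp4 lies inside Syn2 with 1 entry of 22 reads at its start, and Timp1 inside Syn1 with 1 entry of 35 reads. The highest fold within Syn3, 15.1 with 95 reads (chr10:86402351-86402739), was outside Timp3 and 96.5 kb from the nearer end of Syn3. Of the 5 entries assigned to Syn1, 1, of 9.14-fold and 61 reads, lay within 1 kb of the Araf start.

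Each Rab3 gene had an entry at 1 of its ends. All 4 exceeded the medians of all genes in both fold and reads, with 9.21-fold and 155 reads for Rab3a, the form most abundant in brain, 11.6-fold and 116 reads for Rab3b, 12.2-fold and 136 reads for Rab3c and 11.8-fold and 172 reads for Rab3d, which is known from secretory granules. Their numbers of entries differed widely. Rab3c had 29 and Rab3b, with a span of 64.3 kb, had 1. Besides its start, Rab3c had 10.9-fold and 143 reads 9.05 kb from its far end (chr13:110062657-110063681). Snap91 had 7.89-fold and 137 reads (115 to 162) at its start, in an interval with 4 summits, and 10 entries in all.

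Away from the starts, entries were unevenly spread. Of the 541 entries, 98 (18.1%, exact binomial 95% interval 14.96 to 21.6%) lay within 1 kb of the gene's own ends, 303 (56.01%, 51.7 to 60.2%) inside and 140 (25.9%, 22.2 to 29.8%) outside. Over all genes, 21.4% of 123843 gene-entry pairs lay within 1 kb of the own ends, with 57410 pairs inside and 39980 outside. Gene-end entries had a median of 54 reads, against 20 inside and 22 outside, and 96.9% of them passed a q-value of 0.05, against 77.2% and 80.0%. Of the 541 together 81.5% passed, close to the 82.8% of entries assigned to any gene. With 20 or more entries, 10 genes (17.9%, against 5.34% of all genes) held 280 of the 541: Syt1 54, Stx8 35, Syn3 32, Rab3c 29, Sv2b 26, Stx18 24, and Snap25, Sv2c, Syt7 and Syt13 20 each. With 1 entry there were 5 genes (8.93%), against 14.3% of all genes. Syt1 is outranked by 98 of the 21774 genes.

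Longer genes can hold more entries, so density was also computed. Over territory, the span plus the flanks nearest to the gene, the vesicle and fusion genes held 8.02 entries per 100 kb, against 6.21 over all genes. Inside the span beyond 1 kb from the ends they held 7.48 per 100 kb, against 5.70, and in the flanks 5.41, against 4.23. Among the 22 genes of 50 kb or more, the density inside ran from 24.1 per 100 kb in Syt7, 14.2 in Stx8, 14.1 in Stx18 and 11.9 in Snap25 to 1.13 in Syt9 and 0 in Rab3b. Syt1, first by number, had 8.21. Among these 22 genes Syt7 thus had the densest interior, with 15 entries of which the strongest reached 6.93-fold and 56 reads. Shorter genes were not ranked.

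**Figure D4:**
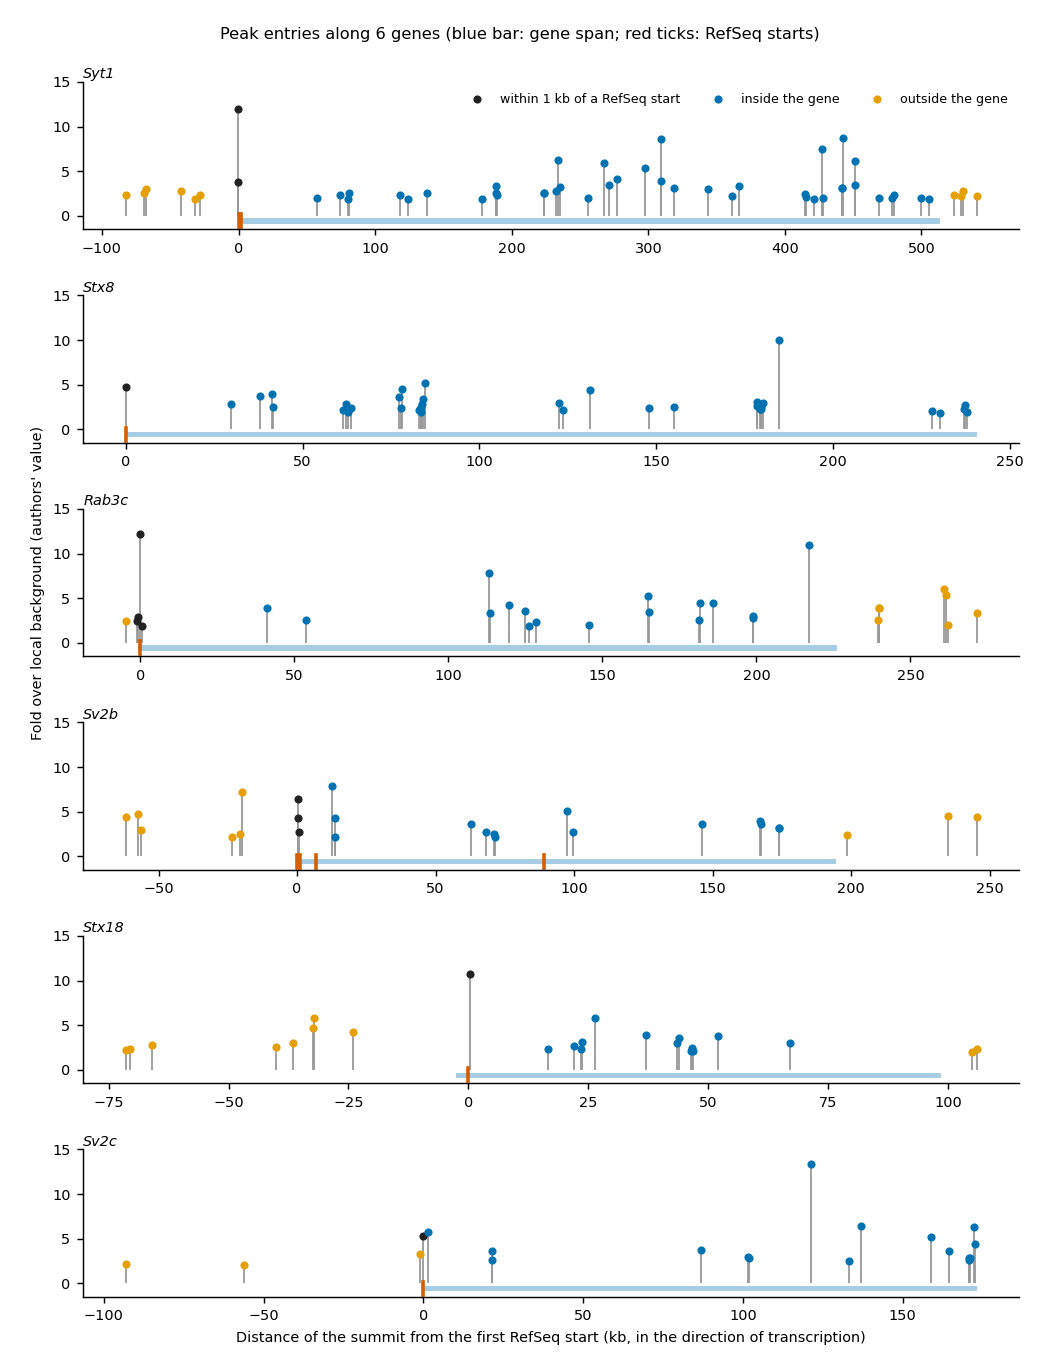
Peak entries along the 6 genes with a RefSeq start and the most entries. The horizontal axis is the distance of the summit from the first start in the direction of transcription (kb), the vertical axis the authors' fold, the blue bar the gene span and red ticks the RefSeq starts. Syt1, Rab3c and Stx18 are highest at the start, while Stx8 (9.98-fold), Sv2b (7.87-fold) and Sv2c (13.4-fold) are highest inside the gene.

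Strong entries over 1 kb from both ends and from every listed start were found at 12 of the genes. The counts given here were not made over all genes, so they do not set these genes apart. In all 424 entries, at 46 genes, met this distance, and 14 of these had 8-fold or more. They belong to Cplx2, Rab3c, Stx11, Stx8, Sv2c, Syp, Syt1, Syt11, Syt14 and Syt3, and to Snap25 and Syn3, whose own starts are not in the promoter table. That of Syt11 is only 1076 bp from its start. In Syt1 there were 2, of 8.71-fold with 99 reads (chr10:108568011-108569169) and 8.65-fold with 91 reads (chr10:108701095-108702272), at 441 and 308 kb from the nearest RefSeq start. In Syt14 the entry had 8.95-fold and 56 reads at 65.4 kb from the nearer end. Over the 422 entries of genes with a listed start, the median was 5.54-fold within 1 kb of a start, 3.09-fold at 1 to 10 kb, 2.99-fold at 10 to 50 kb and 2.91-fold beyond 50 kb, where 189 entries (44.8%) lay.

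Other genes of the release machinery were similar in how often they had an entry at an end. Of 51 such genes, 47 did, against 63.7% of all genes, with Synj1, Sytl1, Sytl3 and Unc13c as the exceptions. Their median strongest entry was 7.80-fold. Their median of 8 entries per gene, against 5.5 for the vesicle and fusion genes and 3 for all genes, came with a median span of 79.3 kb. Pclo, a scaffold of the active zone, had 16.4-fold and 277 reads. Unc13a, which primes vesicles, had 7.17-fold and 105 reads. Dnm3, a dynamin, had 52 entries over 496 kb.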

How the data were processed

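ATAC-seq libraries (8 to 9 amplification cycles and paired 75-nt reads, per the labels' protocols) were made from 2 replicates of 1 group. The submitters' processing notes name MACS2 2.2.7.1, SAMtools 1.7.2, BWA 0.7.1.7, cutadapt 0.6.2 and Trim Galore, and the build mm10. For settings, duplicate reads, a shift for the Tn5 cut and the filter, the sources used here give nothing. The authors deposited 1 pooled list of 138387 entries with a score, a fold (a ratio of summit to local background), and the −log10 of the p-value and of the q-value, as deposited. The deposited score is 10 times the −log10 p and was not used further. Calls that rest on pooled replicates cannot show how far replicates differ, and library depth is not known.

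Reads and local background at each summit were solved from the deposited fold, taken as (reads + 1)/(background + 1), and the −log10 p, taken as the Poisson tail above the reads. In 99.96% of entries the solved reads lay within 0.01 of a whole number. Genes came from a GRCm38.p6 table. Its 113 protein-coding rows with scaffold coordinates were left out. Starts, strand and promoters (250 bases before to 50 after the start) came from RefSeq for 17492 protein-coding genes. Shares of entries by position carry exact binomial intervals, other shares carry none, and no test was run. These intervals treat each entry as independent. Of the 541 entries, however, 236 lie in an interval with several summits and 280 belong to 10 genes, so the intervals are too narrow. Membership follows gene names and uses no measured value, but the name rule, role groups and lists were chosen with earlier results of these data known. Named were 18 core genes, the 10 with most entries, the 10 with the highest gene-end fold, the 10 entries with most reads and the genes without a gene-end entry; further genes were named after their values were seen, to account for each role. Some genes are counted in the totals but not reported singly here. The scripts (Python 3.11.15, pandas 2.3.3, SciPy 1.17.1) were checked on simulated data.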

Additional observations from a re-analysis of the deposited data

How the results depend on the processing

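Of 56 recomputed values, 7 results under 8 alternatives, 50 stayed within 1.5 times the reported count or median, or inside the interval of the reported share, and 6 moved. When only the upper 50% of entries in −log10 q were kept, the entries assigned fell to 266, against 541, the median per gene to 3, against 5.5, the share at gene ends rose to 27.8%, against 18.1%, and the median fold to 4.82, against 3.14. That share was 14.05% with a gene-end window of 500 bp and 13.8% with 1 entry per interval. Of the 56 genes, 48 kept a gene-end entry in the upper 50% of entries, against 58.3% of all genes, and 49 with the 500 bp window, against 58.2%. Allowing only digits after Stx, Syt, Vamp and Cplx leaves 52 genes and 524 entries. No paired analysis was possible because both replicates were pooled into 1 list, and for the same reason no replicate could be left out. Entries near the minimum of 11 reads carry the largest counting error.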

Other observations

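Far ends and gene bodies were looked at as well. Of the 43 vesicle and fusion genes over 4 kb with a known strand, 5 had an entry within 1 kb of the far end and over 1 kb from any start (11.6%), against 11.6% of all such genes. These were Sv2c with 62 reads, Syt8 with 21, Cplx3 with 16, Stx2 with 12 and Cplx1 with 11. The entries of Stx2 and Cplx1 did not pass a q-value of 0.05. Of 235 entries inside genes with a known strand, 106 (45.1%, exact binomial 95% interval 38.6 to 51.7%) lay in the part of the span nearer to the start, against 51.0% over all genes, a value inside the interval. Entries of 1 gene are not independent, so this interval is too narrow.

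Close neighbours share sites. An 8.94-fold entry of 107 reads lies within 1 kb of the starts of both Stx5a and 1700092M07Rik, whose spans lie 0.199 kb apart. The entry at the start of Stx8 lies within 1 kb of the Cfap52 start. Vamp5 and Vamp8 lie 4.75 kb apart.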
